A study of Sus scrofa with 13 samples.

Results

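Splicing removes introns from pre-mRNA, and the genes described here encode 5 families of proteins that carry it out or steer it. They were taken from the deposited pig gene table by symbol, as the genes named SRSF, HNRNP, PRPF, SF3A or SF3B and SNRPA to SNRPG. The rule used no measured value and found 65 of 28232 rows with 64 symbols. SNRPE had a second row, annotated as a pseudogene and listed at 0 in all 13 libraries, so 64 genes were tested. The rows of HNRNPU, PRPF38A and SNRPB were annotated as long non-coding RNA, both in the deposited table and in RefSeq. They were kept under their symbols, and whether their counts came from protein-coding transcripts was not tested. There were 11 SR proteins, 20 hnRNP proteins, 13 PRPF factors, 9 SF3 subunits and 12 rows for Sm and other snRNP proteins.

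The spliceosome is assembled on each intron from small nuclear ribonucleoproteins (snRNPs), which are RNA and protein particles named U1, U2, U4, U5 and U6. Sm proteins form a ring around most of these RNAs, SF3 subunits belong to the U2 particle that holds the branch point, and PRPF factors include the catalytic core and the proteins that activate it. SR proteins mostly promote, and hnRNP proteins often repress, the use of nearby splice sites. In early embryos the transcripts stored in the egg are replaced by transcripts of the embryo's own genome, which the pig switches on mainly around the 4-cell stage.

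Polyadenylated RNA was sequenced from porcine preimplantation embryos (Sus scrofa). IVF embryos, made by in vitro fertilisation, were sampled at the 4-cell stage, as blastocysts and as hatched blastocysts (3 libraries each), and in vivo-derived embryos as blastocysts and as hatched blastocysts (2 libraries each). A blastocyst has a fluid-filled cavity and a hatched one has left the zona pellucida. The strain, age and number of animals, the number of embryos per library and the culture of the IVF embryos are not given in the labels, and no in vivo 4-cell group was analysed here. Since nothing says that libraries came from separate collections, p-values measure only the spread between these libraries, which may be technical. Each library mixes all cells of its embryos, so fewer cells of a type and less RNA per cell cannot be told apart.

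Libraries held 33259311 to 39273867 counts, and 3 counts, taken as the floor of detection, equal 0.0764 to 0.0902 CPM, the counts scaled to library size. Oocyte and early cleavage markers summed to 14826 to 21076 CPM in the 4-cell libraries and at most 18.8 CPM elsewhere, where between 0 and 3 of the 8 genes exceeded 1 CPM. Trophectoderm markers summed to 94.7 to 783 CPM in 4-cell embryos and 19621 to 37161 CPM in the other 4 groups. In the 4-cell libraries CDX2 and KRT18, which define that lineage, were at 0. The 4-cell libraries stood apart from each other, since library 1 held 28 of the 64 splicing genes at over 2 times their CPM in both other 4-cell libraries, against 22.4% of the 16312 genes tested. PRPF3 alone of the 64 was over 2 times lower there than in both others, against 19.4% of genes. That library also held the lineage factor TFAP2C at 775 CPM, against 142 and 86.9 CPM in the other 4-cell libraries, and GATA6 at 113 CPM, against 2.496 and 1.22 CPM, and the part of this in the results was not tested. Counts of members in comparisons with the 4-cell group are therefore given with and without that library, as are the values of called genes that it moved by over 1.5 times. No replicate number came with the counts of 1 in vivo hatched library, which is named the unnumbered library.

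Levels between genes were compared as FPKM, the authors' values per gene length and library size. HNRNPF, which binds runs of G in pre-mRNA, had the highest mean over the 12 libraries whose FPKM were used (442 FPKM). HNRNPAB averaged 406 FPKM and HNRNPM 286 FPKM. In each in vivo library used HNRNPM was above HNRNPF (507, 458 and 589 FPKM, against 465, 368 and 420 FPKM). HNRNPF levels were 423 ± 182 FPKM in IVF 4-cell embryos, 473 ± 28.6 in IVF blastocysts, 452 ± 19.9 in IVF hatched blastocysts, 416 ± 68.3 in in vivo blastocysts (± is the SD, n = 3 for IVF groups and n = 2 in vivo) and 420 in the 1 in vivo hatched library used. These group means lay within the spread of the 4-cell libraries. HNRNPUL2, a relative of the scaffold protein HNRNPU, had the lowest mean of the detected members (0.221 FPKM).

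Within the other families levels also differed widely between genes, but less than among the hnRNP proteins. SRSF9 led the SR proteins with a mean of 234 FPKM, and SRSF12, an atypical SR protein, was lowest at 1.60 FPKM. In the 4-cell libraries, however, SRSF2 was above SRSF9 (404, 188 and 236 FPKM, against 98.7, 59.2 and 59.2 FPKM). PRPF38A, a protein that joins the spliceosome before its activation, led the PRPF factors at 136 FPKM. PRPF40B, which is associated with the U1 particle, averaged 1.29 FPKM. SF3B4 led the SF3 subunits at 157 FPKM and SF3A1 was lowest at 3.86 FPKM, although both proteins sit in the same U2 particle. Among Sm and snRNP proteins SNRPB was highest (154 FPKM) and SNRPF lowest (15.7 FPKM).

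The 7 Sm proteins of the ring (SNRPB, SNRPD1, SNRPD2, SNRPD3, SNRPE, SNRPF and SNRPG) are present once each in an assembled ring, yet their transcripts were far from equal. The highest exceeded the lowest by 8.46 to 18.4 times in FPKM, depending on the library. SNRPD3 was the highest in all 3 of the 4-cell libraries (216 to 368 FPKM). SNRPB, whose row was annotated as non-coding, was the highest in the 9 others (130.5 to 182 FPKM). The lowest was SNRPF or SNRPG in every library.

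**Figure D1:**
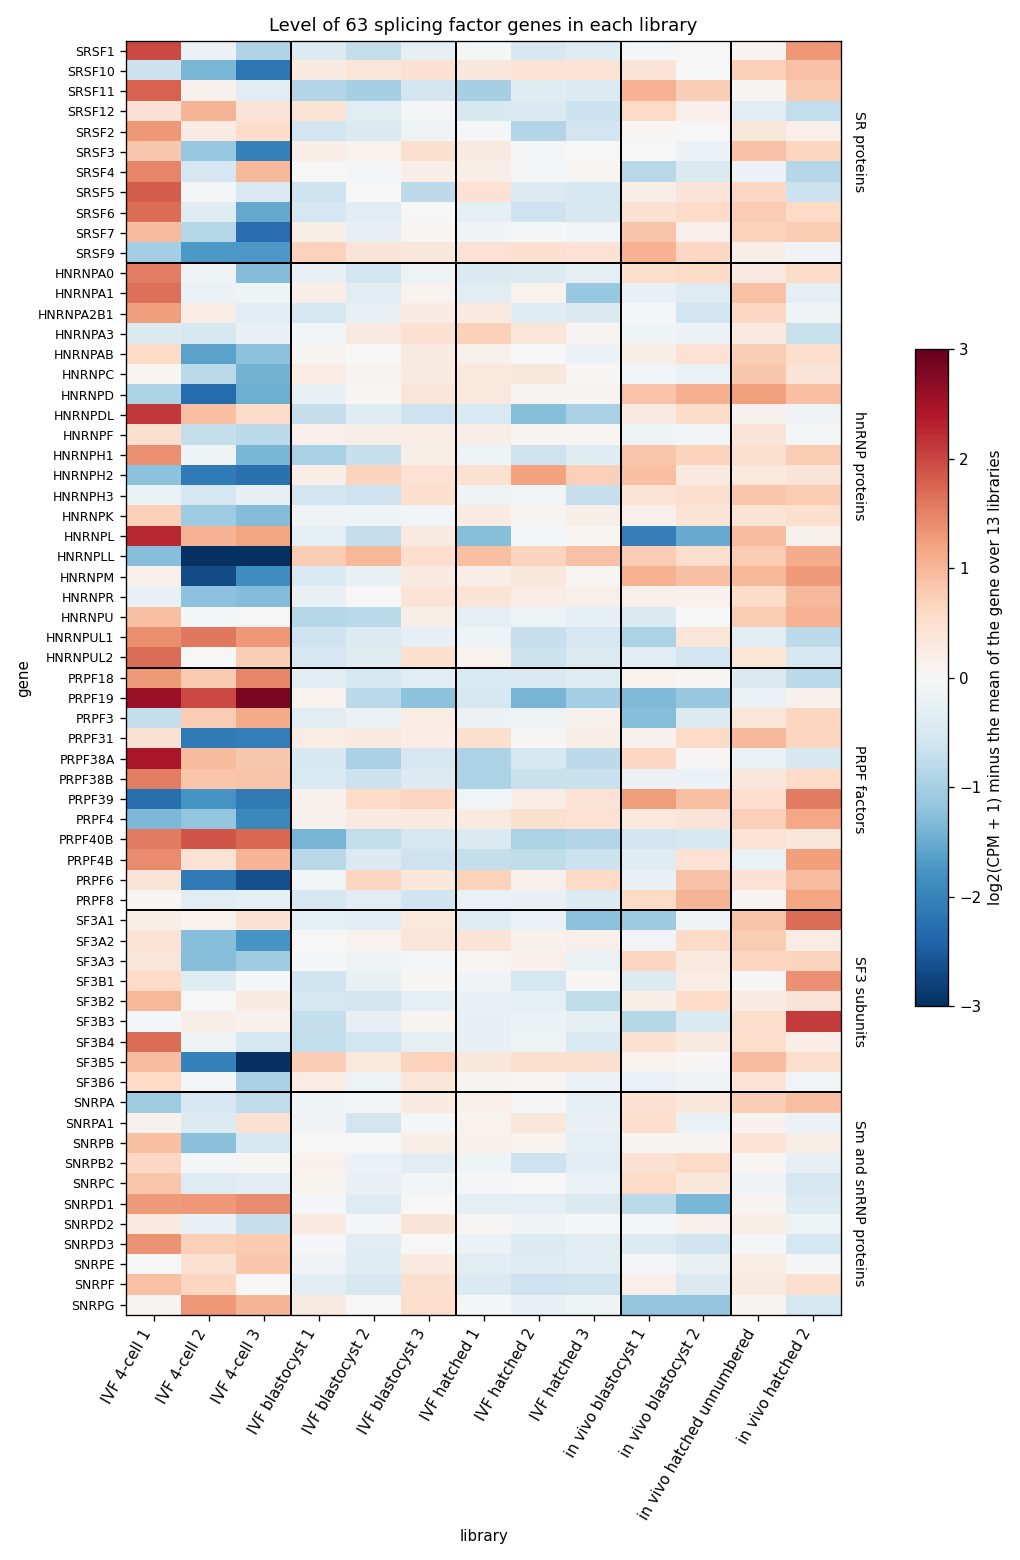
Level of 63 of the tested genes (rows, grouped by family) in 13 libraries (columns, grouped by origin and stage), as log2(CPM + 1) minus the mean of the gene over all libraries. Red marks libraries above the mean of that gene and blue those below it. The 4-cell libraries hold both the deepest red and the deepest blue cells, and 4-cell library 1 is redder than its replicates for most SR and hnRNP genes.

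Counted together, the members took 1.21% of all counts in IVF 4-cell embryos, 1.07% in IVF blastocysts, 1.07% in IVF hatched blastocysts, 1.21% in in vivo blastocysts and 1.52% in in vivo hatched blastocysts. The PRPF factors summed to 1928 ± 353 CPM in IVF 4-cell embryos, 655 ± 54.5 CPM in IVF blastocysts, 662 ± 38.96 CPM in IVF hatched blastocysts, 904 ± 14.3 CPM in in vivo blastocysts and 1038 ± 194 CPM in in vivo hatched blastocysts. Every 4-cell library lay above every other library for this sum. For the hnRNP proteins the sum was 5984 ± 3715 CPM in 4-cell embryos, 6280 ± 750.2 CPM in IVF blastocysts and 6468 ± 581 CPM in IVF hatched blastocysts. It was 6976 ± 85.9 CPM in in vivo blastocysts and 8907 ± 932 CPM in in vivo hatched blastocysts. The 4-cell value spanned 3619 to 10266 CPM, so libraries of that group lay both below and above all others. SF3 subunits summed to 1161 and 1486 CPM in in vivo hatched blastocysts, against 912 and 962 CPM in in vivo blastocysts and 655 to 833 CPM over the 6 IVF blastocyst and hatched libraries.

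**Figure D2:**
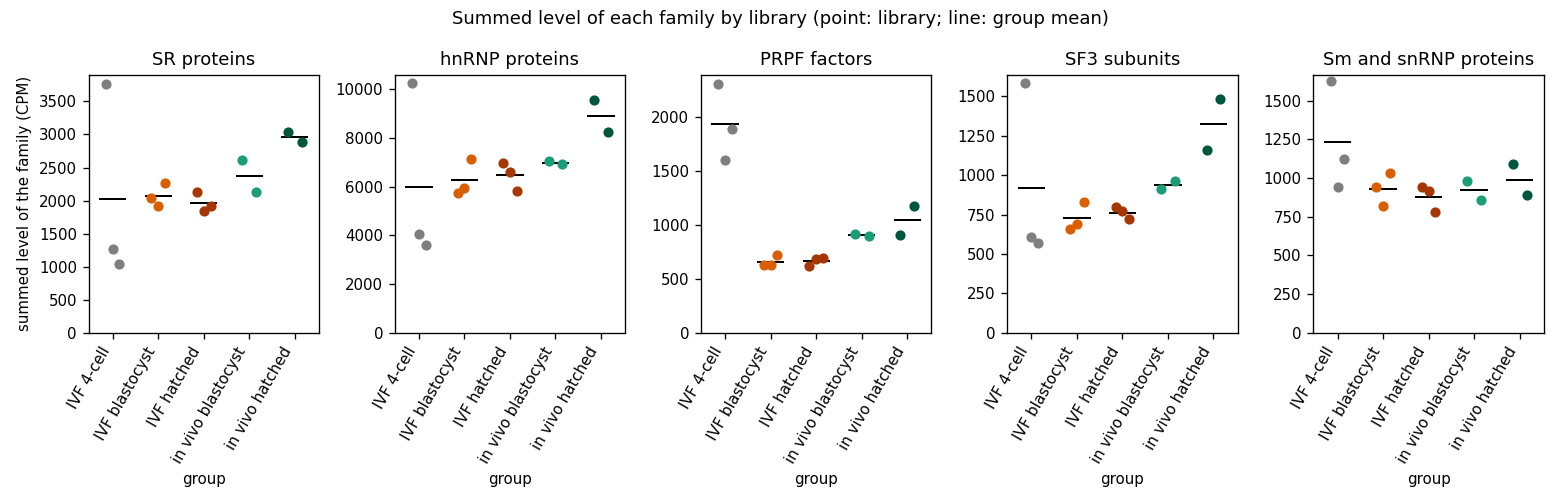
Summed CPM of each family (y axis, from 0) in each library (points) of the 5 groups (x axis), with the group mean as a line. The PRPF sum is 1601 to 2302 CPM in the 4-cell libraries and at most 1175 CPM in all others, while the other 4 families have 1 high 4-cell point, which is library 1.

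With all libraries the counts of called members differed between families. They were not tested against the shares of all genes in IVF blastocysts over IVF 4-cell embryos, 25.7% called higher and 30.6% lower. Of the 13 PRPF factors, 7 fell and 2 rose in IVF blastocysts relative to IVF 4-cell embryos. Among the 20 hnRNP proteins 6 rose and 3 fell. Of the 11 SR proteins 2 rose and 2 fell, of the 11 Sm and snRNP proteins tested 1 rose and 2 fell, and no SF3 subunit was called. Over all 64 members 11 rose (17.2%) and 14 fell (21.9%), against 25.7% and 30.6% of all genes tested, so both shares were below those of all genes. The members' median log2 fold change was -0.13, and that of all genes -0.23. Without 4-cell library 1, 26 members rose and 13 fell, against 32.4% and 33.6% of genes, and the median was 0.26 for members and -0.093 for all genes. The family counts also depended on that library. Without it 5 SR proteins rose and 0 fell, and 10 hnRNP proteins rose and 2 fell. For PRPF factors it was 4 and 8, for SF3 subunits 4 and 0, and for Sm and snRNP proteins 3 and 3. All 11 that rose and 11 of the 14 that fell with all libraries were called the same way without 4-cell library 1, and no member was called in the opposite direction. HNRNPL, SRSF11 and SRSF2 lost their call, and PRPF3 and SNRPG fell without that library but not with it. A call meant an adjusted p under 0.05 in the quasi-likelihood test of edgeR over all genes.

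The scaling of the 4-cell libraries mattered as well. With library totals alone in place of TMM, the median of all genes moved to -0.50 and that of the members to -0.37, and 7 members rose and 15 fell (23% and 32.9% of genes). The hnRNP median stayed above 0 (0.46 with TMM and 0.16 with library totals) and the PRPF median below 0 (-1.37 and -1.62). In that scaling 1 SF3 subunit was called lower.

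Hatched IVF blastocysts gave nearly the same picture against the same 4-cell libraries, with 12 members higher and 13 lower (25.7% and 30.9% of genes). Since both comparisons share the 4-cell libraries, they are not independent, and values of both are given side by side. Without 4-cell library 1 the counts were 25 and 15 (32.4% and 34.0% of genes), and with library totals alone 9 and 17 (22.6% and 33.5% of genes). In either comparison 19 of the 25 called members kept their call whichever library was left out. The share of all called genes that did so was not counted.

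The PRPF factors that fell work at several steps. PRPF19 (chromosome 2, 10851779 to 10860315) encodes a ubiquitin ligase at the heart of the complex that accompanies spliceosome activation. It had 33.3, 21.4 and 38.9 CPM in the 4-cell libraries, 5.07, 2.22 and 1.40 CPM in IVF blastocysts and 3.09, 1.16 and 1.79 CPM in IVF hatched blastocysts. The 4-cell values did not overlap with any other, and the log2 fold change was -3.21 ± 0.66 for blastocysts (adjusted p = 0.00334) and -3.70 ± 0.67 for hatched blastocysts (adjusted p = 0.00188). Without IVF blastocyst library 1 the blastocyst value was -3.86.

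PRPF40B (chromosome 5, 15570140 to 15593140), a protein associated with the U1 particle, had 14.1, 18.1 and 16.1 CPM in 4-cell embryos, 0.968, 2.06 and 2.61 CPM in IVF blastocysts and 2.81, 1.68 and 1.82 CPM in IVF hatched blastocysts. All 4-cell libraries lay above all of these IVF blastocyst and hatched libraries, and the gene was lower than in 4-cell embryos by 7.31-fold in blastocysts (log2 fold change -2.87 ± 0.57, adjusted p = 0.00286) and 6.36-fold in hatched blastocysts (log2 fold change -2.67 ± 0.56, adjusted p = 0.00385).

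PRPF38A and PRPF38B, a protein of the same family, both fell. PRPF38A had 969, 347 and 313 CPM in 4-cell embryos, 127, 90.3 and 125 CPM in IVF blastocysts and 92.9, 122 and 102 CPM in hatched ones, with a log2 fold change of -1.92 ± 0.40 in blastocysts. Without 4-cell library 1 it was -1.28 in blastocysts and -1.35 in hatched blastocysts, still called. PRPF38B had 189, 115 and 117 CPM at the 4-cell stage, 46.4, 40.5 and 47.7 CPM in blastocysts and 32.4, 39.9 and 39.9 CPM in hatched blastocysts, with -1.37 ± 0.28 in blastocysts and -1.59 ± 0.28 in hatched blastocysts. For both genes all 4-cell libraries lay above all others. PRPF18, a factor of the second catalytic step, and PRPF4B, a kinase that phosphorylates spliceosomal proteins, fell by 2.63-fold and 2.66-fold in blastocysts.

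The 2 PRPF factors that rose were PRPF39 and PRPF4. PRPF39 (chromosome 1, 175285219 to 175317245), whose yeast relative is a U1 protein, had 7.11, 10.4 and 7.98 CPM in 4-cell embryos, 41.2, 58.2 and 60.1 CPM in IVF blastocysts and 36.0, 44.2 and 51.5 CPM in hatched ones. No 4-cell library reached the lowest of the other 6, and the log2 fold change was 2.88 ± 0.36 in blastocysts (adjusted p = 0.000326) and 2.64 ± 0.36 in hatched blastocysts (adjusted p = 0.000469). PRPF4, a protein of the U4 and U6 particle, had 30.9, 34.8 and 20.2 CPM in 4-cell embryos, 87.8, 96.8 and 99.0 CPM in IVF blastocysts and 99.5, 113 and 110.0 CPM in IVF hatched blastocysts, a rise of 3.97-fold in blastocysts and 4.66-fold in hatched blastocysts. PRPF4 shares 402 bases with CDC26, so its reads may be split differently if strand was not used. PRPF6 and PRPF31, which join U4 and U6 to U5, were called higher without 4-cell library 1 but not with it. PRPF6 had 28.9, 48.9 and 39.1 CPM in IVF blastocysts, against 41.6, 6.34 and 4.10 CPM in the 4-cell libraries, with 4-cell library 1 in the range of the blastocysts.

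**Figure D3:**
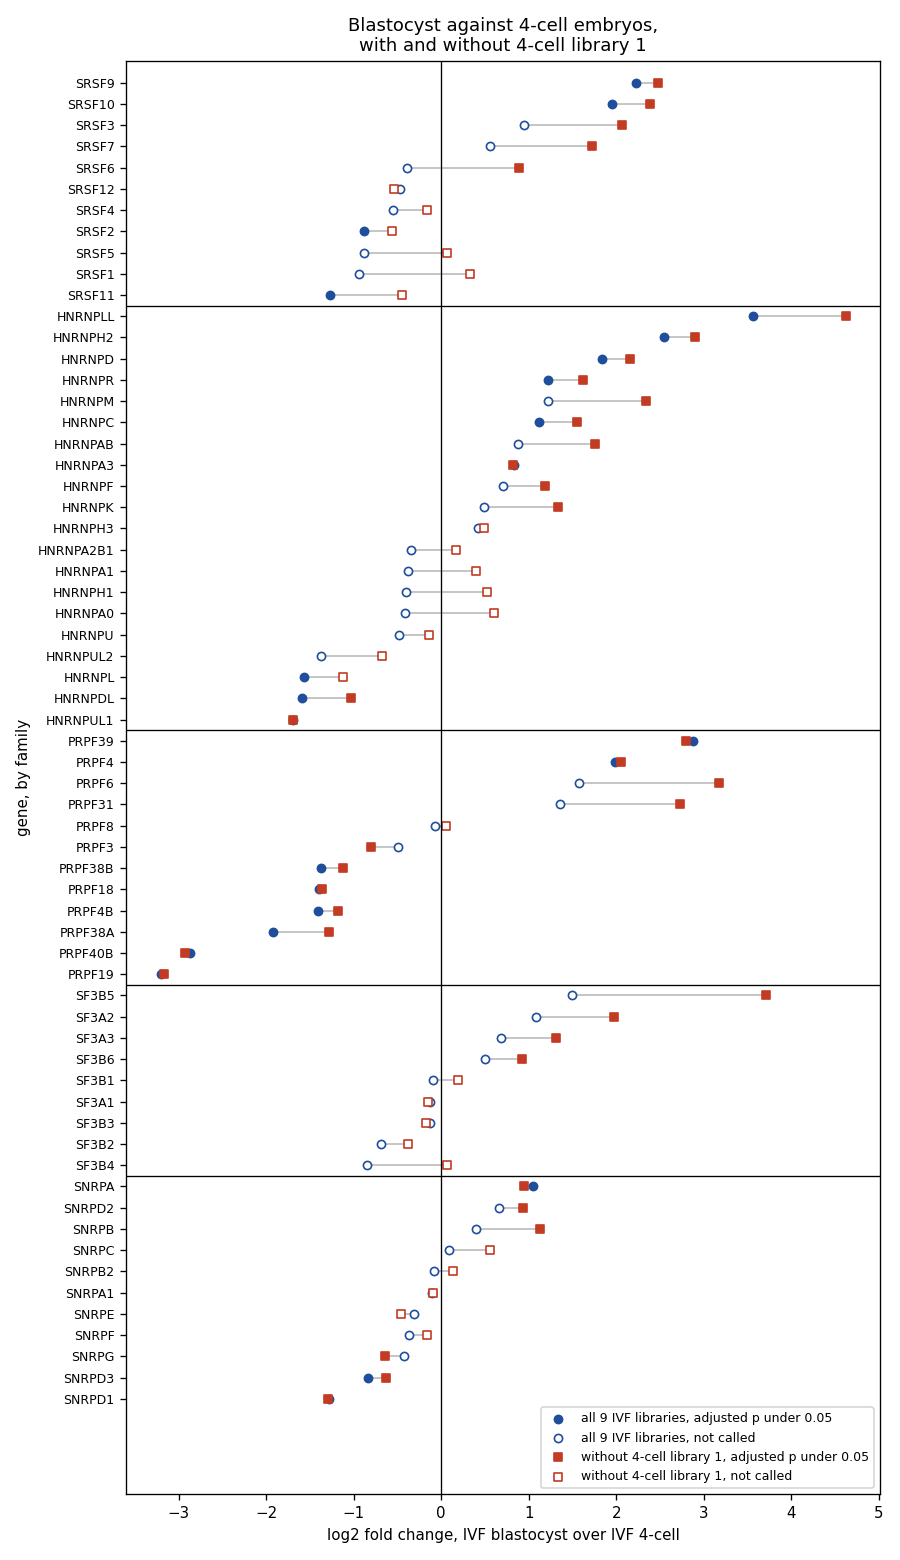
Log2 fold change of 63 genes in IVF blastocysts over IVF 4-cell embryos (x axis), by family, with all 9 IVF libraries (blue circles) and without 4-cell library 1 (red squares), where filled symbols had an adjusted p under 0.05. Most red squares lie to the right of their blue circle in the SR, hnRNP and SF3 families, while PRPF19, PRPF40B and PRPF18 hardly move.

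Among the hnRNP proteins HNRNPLL, known in mouse and human T cells for regulating exons of CD45, had the largest change of a called member in IVF blastocysts. It had 15.6, 2.32 and 4.04 CPM in 4-cell embryos, 67.0, 78.8 and 55.9 CPM in IVF blastocysts and 73.3, 62.2 and 72.3 CPM in IVF hatched blastocysts, with a log2 fold change of 3.56 ± 0.61 in blastocysts. Without 4-cell library 1 it was 4.62 in blastocysts and 4.69 in hatched blastocysts. HNRNPH2, a binder of G runs, had 79.6, 42.5 and 39.2 CPM in 4-cell embryos, 215, 300.2 and 252 CPM in IVF blastocysts and 257, 437 and 308 CPM in IVF hatched blastocysts (log2 fold change 2.54 ± 0.35, adjusted p = 0.000492 in blastocysts). The 4-cell libraries lay below all others for both genes. HNRNPD, HNRNPR, HNRNPC and HNRNPA3 rose by 3.58-fold, 2.33-fold, 2.16-fold and 1.78-fold in blastocysts, and HNRNPA3 shares 1256 bases with NFE2L2. HNRNPM was called in hatched blastocysts, at 1.58 ± 0.59 on the log2 scale over 4-cell embryos, and was at 2.69 without 4-cell library 1. It had 667, 726 and 603 CPM in IVF hatched blastocysts, against 642, 89.0 and 158 CPM in 4-cell embryos, so these groups overlapped. HNRNPC overlapped between the same groups.

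HNRNPUL1 fell, with 45.1, 51.2 and 41.9 CPM in 4-cell embryos, 10.4, 12.2 and 13.6 CPM in IVF blastocysts and 14.9, 9.73 and 11.3 CPM in hatched blastocysts (log2 fold change -1.69 ± 0.34, adjusted p = 0.00297 in blastocysts). HNRNPDL, a paralog of the AU-rich element binder HNRNPD, had 697, 298 and 234 CPM in 4-cell embryos, 97.1, 123 and 104 CPM in IVF blastocysts and 116, 65.1 and 81.1 CPM in IVF hatched blastocysts (log2 fold change -1.60 ± 0.38, adjusted p = 0.00689 in blastocysts). The paralogs HNRNPD and HNRNPDL thus changed in opposite directions, as did HNRNPLL and HNRNPL. HNRNPL, which binds CA repeats, had 13.1, 9.65 and 19.9 CPM in IVF blastocysts, against 82.5, 34.9 and 38.3 CPM in 4-cell embryos (log2 fold change -1.57 ± 0.51, adjusted p = 0.0266), and that call was lost without 4-cell library 1 or without IVF blastocyst library 1 or 2.

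Of the 5 families the SR proteins had the largest median excess in 4-cell library 1, 1.86 on the log2 scale over the mean of the other 4-cell libraries, against -0.031 over all tested genes. SRSF9 (chromosome 14, 40425412 to 40433950) and SRSF10 rose all the same. SRSF9 had 71.4, 42.9 and 42.9 CPM in 4-cell embryos, 233, 189.6 and 182 CPM in IVF blastocysts and 197, 203 and 195 CPM in IVF hatched blastocysts, a rise of 4.67-fold and 4.73-fold over the 4-cell stage (log2 fold change 2.22 ± 0.27, adjusted p = 0.000289 in blastocysts). SRSF10, which can act as an activator or a repressor depending on its phosphorylation, had 166, 98.9 and 56.6 CPM in 4-cell embryos, 313, 332 and 354 CPM in IVF blastocysts and 328, 344 and 346 CPM in IVF hatched blastocysts (log2 fold change 1.96 ± 0.32, adjusted p = 0.00114 in blastocysts). Neither gene overlapped between the 4-cell group and the others. SRSF3 had 671, 625 and 821 CPM in IVF blastocysts, against 1019, 267 and 142 CPM in 4-cell embryos, and it was called higher in blastocysts without 4-cell library 1 but not with it. SRSF2, an exonic enhancer binder that shares 1364 bases with METTL23, was lower by 1.84-fold (adjusted p = 0.0462) in blastocysts, and 8 of the 9 single-library omissions ended that call. SRSF11 was lower at -1.27 ± 0.47 on the log2 scale in blastocysts, against -0.45 (adjusted p = 0.172 by edgeR) without 4-cell library 1.

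No SF3 subunit was called by edgeR with all libraries, where 1 of the 9 had an unadjusted p under 0.05, and SF3A2, SF3A3, SF3B5 and SF3B6 were called higher in both IVF stages without 4-cell library 1. SF3B5 had 78.3, 9.23 and 2.55 CPM in the 4-cell libraries, 69.1, 51.4 and 66.2 CPM in IVF blastocysts and 52.3, 57.3 and 57.1 CPM in hatched blastocysts. The 30.7-fold range among its 4-cell libraries was the widest of any member in any group.

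In the Sm ring SNRPD1 and SNRPD3 fell. SNRPD1 had 101, 103 and 112 CPM in 4-cell embryos, 39.3, 31.0 and 40.7 CPM in IVF blastocysts and 33.9, 33.1 and 30.4 CPM in IVF hatched blastocysts (log2 fold change -1.28 ± 0.29, adjusted p = 0.00555 in blastocysts), with no overlap and close replicates at each stage. SNRPD3 had 421, 267 and 284 CPM in 4-cell embryos, 158, 129.5 and 165 CPM in IVF blastocysts and 144, 124 and 129 CPM in IVF hatched blastocysts (log2 fold change -0.84 ± 0.26, adjusted p = 0.0209 in blastocysts), and its blastocyst call was lost without any 1 of the IVF blastocyst libraries. SNRPA, protein A of the U1 particle, had 20.3, 20.9 and 26.8 CPM in IVF blastocysts, against 10.1, 15.3 and 12.73 CPM in 4-cell embryos (log2 fold change 1.05 ± 0.37, adjusted p = 0.0369), a call that 6 single-library omissions ended.

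No splicing gene was called between IVF hatched and IVF unhatched blastocysts. Over all 15528 genes tested 7 were called (0.0451%), all lower in the hatched ones. By edgeR 0 members had an unadjusted p under 0.05, and DESeq2 called 0 members as well. The median log2 fold change of the 64 members was 0.0049, and that of all genes -0.0012. SF3B1, which contacts the branch point, had 147, 109 and 160.1 CPM in IVF hatched and 103, 134 and 161 CPM in IVF unhatched blastocysts, with a log2 fold change of 0.095 ± 0.30 (standard error).

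In vivo, 6 members were higher in hatched than in unhatched blastocysts and 1 was lower. The 6 were SF3B3 and SF3A1 of the U2 particle, HNRNPL, HNRNPU, PRPF3 of the U4 and U6 particle, and SNRPG of the Sm ring, and SRSF9 was lower. These were 9.38% and 1.56% of the 64 members, against 6.96% of 15528 genes called higher and 7.39% called lower. The median log2 fold change was 0.20 for members, with 44 of the 64 above 0, and -0.0094 for all genes.

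SF3B3 (chromosome 6, 13524519 to 13578681) had 98.7 and 294 CPM in in vivo hatched blastocysts, the unnumbered library given before library 2, against 37.3 and 50.3 CPM in in vivo blastocysts (log2 fold change 2.07 ± 0.42, adjusted p = 0.00867). Library 2 of the hatched group was nearly 3 times its partner, and both exceeded the unhatched libraries. Without library 2 the log2 fold change was 1.16 (adjusted p = 0.0597 by edgeR). SF3A1 (chromosome 14, 47312460 to 47335448) had 19.9 and 36.4 CPM in hatched, against 4.45 and 9.84 CPM in unhatched in vivo blastocysts (log2 fold change 1.92 ± 0.51, adjusted p = 0.0286). HNRNPL (chromosome 6, 47643561 to 47655856) had 32.1 and 18.1 CPM in hatched, against 3.22 and 5.12 CPM in unhatched in vivo blastocysts (log2 fold change 2.54 ± 0.55, adjusted p = 0.0116). Its unhatched values were the lowest of all 13 libraries.

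PRPF3 had 91.9 and 113 CPM in hatched in vivo blastocysts, against 28.9 and 53.0 CPM in unhatched ones (log2 fold change 1.26 ± 0.28, adjusted p = 0.0143). HNRNPU, a nuclear scaffold protein, had 658 and 795 CPM in hatched in vivo blastocysts, against 285 and 380.4 CPM in unhatched ones (log2 fold change 1.05 ± 0.32, adjusted p = 0.047). SNRPG (chromosome 3, 72198722 to 72208053) had 48.4 and 32.2 CPM in hatched in vivo blastocysts, against 19.5 and 20.02 CPM in unhatched ones (log2 fold change 0.96 ± 0.28, adjusted p = 0.0436). SNRPG shares 648 bases with PCYOX1, so its counts are uncertain if strand was not used. SRSF9 had 164 and 134 CPM in hatched in vivo blastocysts, against 298 and 223 CPM in unhatched ones (log2 fold change -0.90 ± 0.25, adjusted p = 0.0355).

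**Figure D4:**
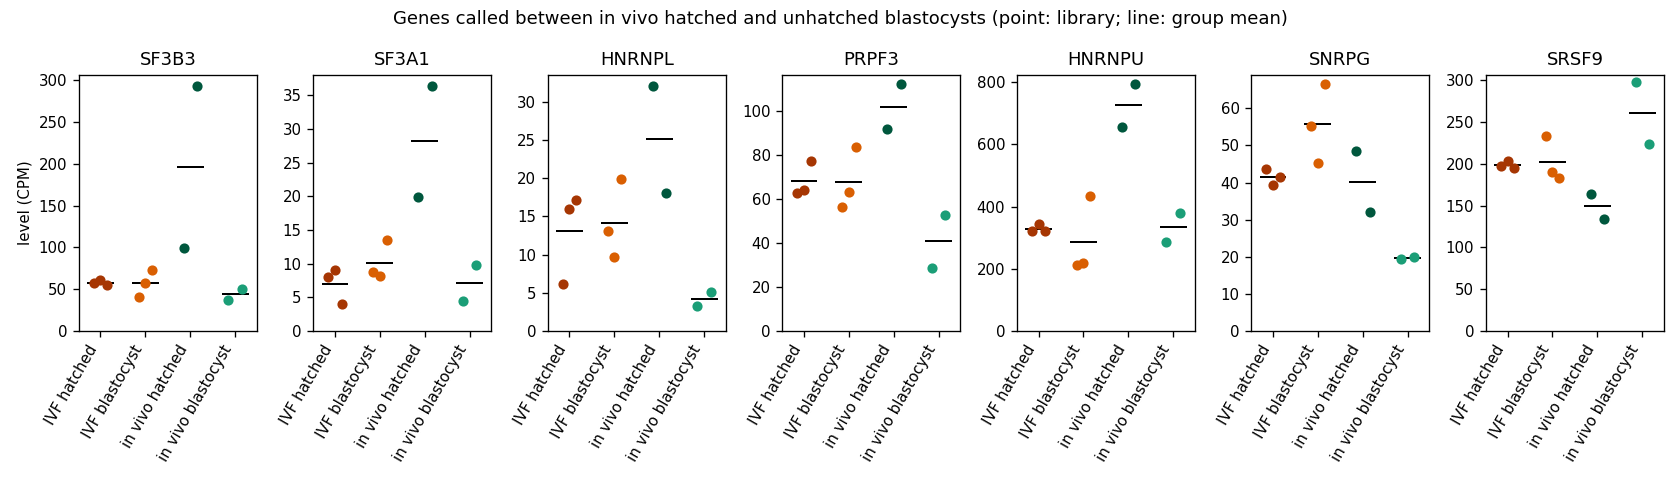
CPM (y axis, from 0) of the 7 genes called between in vivo hatched and unhatched blastocysts, in every IVF and in vivo library of both stages (points), with the group mean as a line. The in vivo groups lie apart in each panel, while the IVF hatched and unhatched points overlap or lie close together.

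These in vivo calls rest on few libraries. Without in vivo blastocyst library 1 no member was called, against 2.66% of genes higher and 3.62% lower, and without in vivo hatched library 2 there were 3 higher and 0 lower (3.32% and 3.17% of genes). The counts were 4 higher and 3 lower without in vivo blastocyst library 2, 7 and 3 without the unnumbered library, and 6 and 0 without IVF blastocyst library 3. They were 4 and 0 without any 1 of the IVF hatched libraries, which enter through the shared estimate of spread. The share of all genes called was not counted without in vivo blastocyst library 2, the unnumbered library or an IVF library. With all 13 libraries in 1 fit no member was called, but only 0.2% of genes were higher and 0.346% lower in that fit. DESeq2 called 10 members higher and 3 lower (12.2% and 12.3% of genes). Hypoblast markers summed to 202 and 637 CPM in the in vivo hatched libraries, against 111 and 186 CPM in the unhatched ones, and all 5 genes of that list exceeded 1 CPM in each. GATA6 overlapped between these stages, and the other genes of that list were higher in both hatched libraries. Inner cell mass markers summed to 563 and 378 CPM in hatched, against 805 and 736 CPM in unhatched in vivo blastocysts. Nearly all of this was POU5F1, at 527 and 328 CPM in hatched and 769.9 and 709.7 CPM in unhatched in vivo blastocysts. SOX2, of the same list, differed in the other direction, with 6.72 and 4.53 CPM in hatched and 1.78 and 1.37 CPM in unhatched in vivo blastocysts, as did UTF1, while DPPA4 overlapped. Genes listed as cumulus and granulosa markers summed to 180.3 and 103 CPM in hatched, against 0.927 and 5.90 CPM in unhatched in vivo blastocysts. Nearly all of it came from CYP11A1 and STAR, with INHA and FSHR at 0 in the hatched libraries. That list summed to 323, 103 and 87.8 CPM in IVF hatched blastocysts. Which cells its counts came from, and the part of any cell type in the result, was not tested.

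In blastocysts made by IVF more splicing genes were lower than higher relative to in vivo blastocysts. Of the 64 members 11 fell (17.2%) and 2 rose (3.12%), against 4.74% of genes called lower and 6.09% called higher. The 11 were spread over 4 families: the SR proteins SRSF11 and SRSF6, the hnRNP proteins HNRNPM, HNRNPA0, HNRNPDL, HNRNPD and HNRNPH1, PRPF8 and PRPF38A, and SF3B4 and SF3B2. SNRPG and HNRNPL rose. The median log2 fold change was -0.24 for members, with 41 of 64 below 0, and 0.048 for all genes.

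SRSF11 (chromosome 6, 142621904 to 142668107) had 49.1, 45.2 and 62.2 CPM in IVF blastocysts, against 189 and 153 CPM in in vivo blastocysts (log2 fold change -1.76 ± 0.28, adjusted p = 0.00477). It was the only member called whichever library was left out. PRPF8, the protein at the catalytic centre of the spliceosome, had 16.8, 19.0 and 15.8 CPM in IVF, against 37.7 and 51.2 CPM in in vivo blastocysts (log2 fold change -1.38 ± 0.29, adjusted p = 0.0156). HNRNPM had 421, 493 and 697 CPM in IVF, against 1196 and 1083 CPM in in vivo blastocysts (log2 fold change -1.12 ± 0.23, adjusted p = 0.0146). For these 3 genes every IVF library lay below both in vivo libraries.

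PRPF38A had 127, 90.3 and 125 CPM in IVF, against 275 and 183 CPM in in vivo blastocysts (log2 fold change -1.06 ± 0.27, adjusted p = 0.0302). SF3B4, which binds pre-mRNA next to the branch point, had 138, 156 and 189.5 CPM in IVF, against 319 and 279 CPM in in vivo blastocysts (log2 fold change -0.93 ± 0.23, adjusted p = 0.0254). SF3B2, its partner in that complex, had 29.6, 29.3 and 35.0 CPM in IVF, against 49.8 and 65.2 CPM in in vivo blastocysts (log2 fold change -0.90 ± 0.24, adjusted p = 0.035). In these 3 genes the IVF and in vivo blastocysts did not overlap. The other 5 that fell had log2 fold changes of -1.22 (HNRNPH1) to -0.79 (SRSF6). HNRNPA0 had 44.1, 34.4 and 46.4 CPM in IVF, against 73.9 and 77.9 CPM in in vivo blastocysts, and lies wholly within KLHL3, a gene at 4.46 CPM on average.

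SNRPG had 55.2, 45.3 and 66.7 CPM in IVF, against 19.5 and 20.02 CPM in in vivo blastocysts (log2 fold change 1.47 ± 0.27, adjusted p = 0.00898). HNRNPL had 13.1, 9.65 and 19.9 CPM in IVF, against 3.22 and 5.12 CPM in in vivo blastocysts (log2 fold change 1.75 ± 0.51, adjusted p = 0.0471). The groups did not overlap for either.

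Without in vivo blastocyst library 1 only SRSF11 was called (0 higher and 1 lower, against 1.23% and 0.661% of genes). The counts were 1 higher and 1 lower without IVF blastocyst library 1, 1 and 3 without library 2, and 1 and 9 without library 3. They were 1 and 10 without IVF hatched library 2 or 3. For the fits without an IVF library the share of all genes called was not counted. Whether calls were lost in the members alone or in all genes alike is therefore not known. No member was called with all 13 libraries in 1 fit, but only 0.0216% of genes were higher and 0.0162% lower in that fit. DESeq2 called 4 members higher and 14 lower (11.9% and 9.36% of genes). Trophectoderm markers summed to 32571, 30713 and 37161 CPM in IVF, against 22724 and 22482 CPM in in vivo blastocysts, mostly from KRT8. Inner cell mass markers summed to 1393, 1075 and 932 CPM in IVF, against 805 and 736 CPM in in vivo blastocysts, nearly all of it POU5F1. Neither sum overlapped between IVF and in vivo blastocysts, but other genes of these lists went the other way. GATA3 and TFAP2C of the first list, and DPPA4 and UTF1 of the second, were lower in every IVF than in both in vivo blastocyst libraries. KRT18 was higher in every IVF blastocyst library, and CDX2, GATA2 and SOX2 overlapped. The part of these cell types in the result was not tested.

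At the hatched stage again more members were lower than higher after IVF. In IVF hatched relative to in vivo hatched blastocysts 10 of 64 were called lower (15.6%) and 0 higher, against 4.88% and 6.96% of genes. They were SRSF6 and SRSF11, HNRNPU, HNRNPD, HNRNPM and HNRNPA0, PRPF38B and PRPF4B, and SF3B3 and SF3A1. No Sm or snRNP protein was called by edgeR, and 31 of all members had an unadjusted p under 0.05. The members' median log2 fold change was -0.52, with 52 of 64 below 0, and that of all genes was 0.038.

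PRPF38B (chromosome 4, 111338988 to 111347505) had 32.4, 39.9 and 39.9 CPM in IVF hatched, against 81.6 and 97.3 CPM in in vivo hatched blastocysts (log2 fold change -1.17 ± 0.21, adjusted p = 0.00526). SRSF6, an exonic enhancer binder, had 81.6, 64.2 and 70.8 CPM in IVF hatched, against 167 and 150.0 CPM in in vivo hatched blastocysts (log2 fold change -1.06 ± 0.21, adjusted p = 0.00963). These 2 were the members called whichever library was left out, and in both the IVF libraries lay well below the in vivo ones.

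SF3B3 had 56.9, 60.5 and 55.2 CPM in IVF hatched, against 98.7 and 294 CPM in in vivo hatched blastocysts (log2 fold change -1.66 ± 0.36, adjusted p = 0.0144). SF3A1 had 8.05, 9.08 and 4.00 CPM in IVF hatched, against 19.9 and 36.4 CPM in in vivo hatched blastocysts (log2 fold change -1.89 ± 0.45, adjusted p = 0.0201). HNRNPU had 320.1, 345 and 320.2 CPM in IVF hatched, against 658 and 795 CPM in in vivo hatched blastocysts (log2 fold change -1.06 ± 0.28, adjusted p = 0.0336). These are 3 of the 6 genes that rose on hatching in vivo, and the 2 comparisons share the in vivo hatched libraries. PRPF4B had 25.5, 24.4 and 26.5 CPM in IVF hatched, against 36.5 and 102 CPM in in vivo hatched blastocysts (log2 fold change -1.34 ± 0.35, adjusted p = 0.0305), where the unnumbered library lay near the IVF values and library 2 far above. Without that library 2 the log2 fold change was -0.50 for PRPF4B (adjusted p = 0.491 by edgeR) and -0.75 for SF3B3 (adjusted p = 0.242 by edgeR).

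HNRNPD, HNRNPM, HNRNPA0, SRSF6 and SRSF11 were lower after IVF at both stages, which is 45.5% of the 11 called in blastocysts and 50.0% of the 10 called in hatched blastocysts. Over all genes 115 were lower at both stages, 15.6% of the 736 in blastocysts and 15.2% of the 758 in hatched blastocysts. The 2 comparisons use different libraries but share 1 estimate of spread. HNRNPM had 667, 726 and 603 CPM in IVF hatched, against 1155 and 1399.7 CPM in in vivo hatched blastocysts (log2 fold change -0.85 ± 0.23, adjusted p = 0.0384). HNRNPD had 125, 105 and 106 CPM in IVF hatched, against 234 and 186 CPM in in vivo hatched blastocysts (log2 fold change -0.83 ± 0.22, adjusted p = 0.0339). SRSF11 had 45.5, 70.6 and 68.7 CPM in IVF hatched, against 96.4 and 158 CPM in in vivo hatched blastocysts (log2 fold change -0.95 ± 0.28, adjusted p = 0.0481). In each of these the IVF and in vivo libraries did not overlap.

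**Figure D5:**
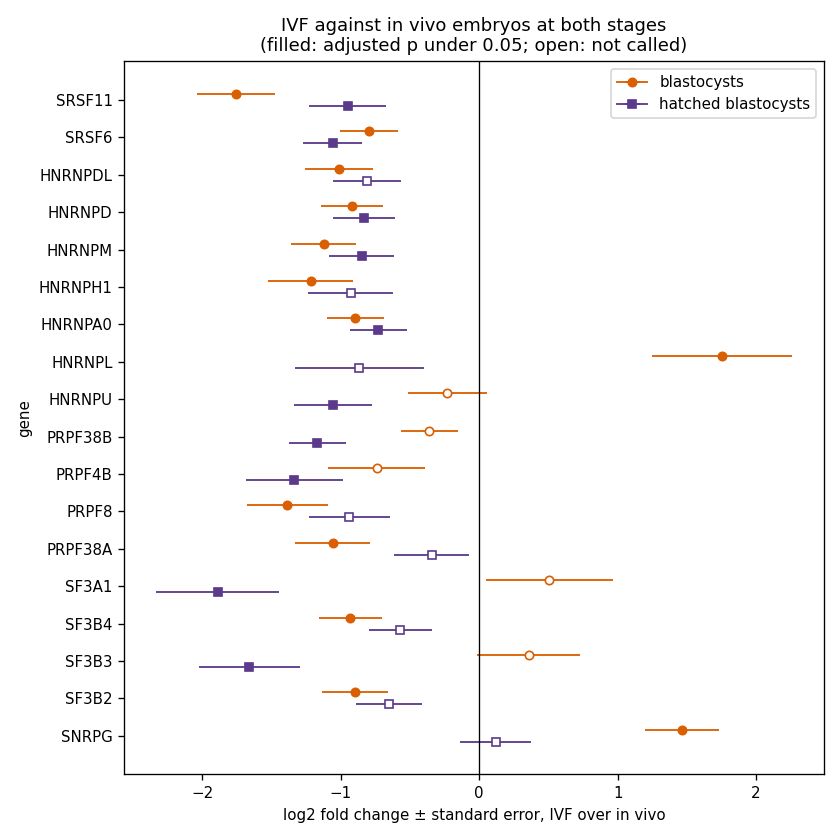
Log2 fold change, with its standard error, of IVF over in vivo embryos (x axis) for the 18 genes called at either stage, in blastocysts (orange circles) and hatched blastocysts (purple squares), where filled symbols had an adjusted p under 0.05. Most points lie left of 0 at both stages, and SNRPG, HNRNPL, SF3A1 and SF3B3 lie right of 0 in blastocysts.

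Without in vivo hatched library 2 the count fell to 2 (PRPF38B and SRSF6), with 0 higher, against 0.968% of genes called lower and 2.1% higher, and without the unnumbered library 2 were higher and 10 lower. The number lower was 4 without IVF hatched library 1 or 2 and 2 without library 3. The share of all genes called was not counted without the unnumbered library or an IVF hatched library. No member was called with all 13 libraries in 1 fit, but only 0.346% of genes were higher and 0.151% lower in that fit. Library totals alone gave 17 members lower (6.03% of genes) and DESeq2 23 lower (9.41% of genes). In the libraries of in vivo hatched blastocysts the hypoblast markers summed to 202 and 637 CPM, against 127 to 204 CPM in IVF hatched blastocysts. The overlap of these hypoblast sums came from GATA6 (98.6 and 194 CPM, against 149, 107 and 179 CPM). GATA4, SOX17, PDGFRA and COL4A2 were each higher in both in vivo hatched libraries than in every IVF hatched one. SOX17, for example, had 30.8 and 82.1 CPM, against 5.36, 1.47 and 0.828 CPM. Inner cell mass markers summed to 749.5, 958 and 1031 CPM in IVF hatched, against 563 and 378 CPM in in vivo hatched blastocysts. These sums did not overlap, and nearly all of them was POU5F1. The other genes of that list, SOX2, UTF1 and DPPA4, went the other way. Each was lower in every IVF hatched library than in both in vivo hatched ones, as with SOX2 at 0.505, 0.931 and 0.883 against 6.72 and 4.53 CPM. The part of both cell types in the result was not tested.

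Whether hatching changed a gene differently after IVF was tested as the IVF hatching change minus the in vivo one. No member was called (0 higher and 0 lower, against 2.79% and 1.93% of genes), although 13 had an unadjusted p under 0.05. HNRNPL came closest, with a difference of -2.62 ± 0.68 on the log2 scale (adjusted p = 0.0509), followed by SF3B3 with -2.02 ± 0.53 (adjusted p = 0.0521). SF3A1 had a difference of -2.40 ± 0.65 (adjusted p = 0.0568) and SNRPG one of -1.35 ± 0.36 (adjusted p = 0.0572). DESeq2 called 7 members lower, namely PRPF38B, SF3A1, PRPF3, SF3B3, SNRPG, SRSF3 and HNRNPL, and none higher (6.37% and 7.01% of genes). So the in vivo hatching change of HNRNPL, SF3B3, SF3A1, SNRPG and PRPF3 was not shown by edgeR to differ from the IVF change, even though only the in vivo one was called. Counts of 1 to 5 lower were found without in vivo blastocyst library 2 or without the unnumbered library (2 each), without in vivo hatched library 2 (1), and with no filter on low counts (5, against 4.21% of genes).

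By edgeR with all libraries, 37 of the 64 members were called in at least 1 comparison and 27 in none. Neither this tally nor those that follow were made over all genes. In IVF blastocysts over 4-cell embryos alone, 25.7% of all genes were called higher and 30.6% lower. The tallies therefore describe the members and do not set them apart from other genes. Of the 27, DESeq2 called 14 in some comparison and edgeR without 4-cell library 1 called 15, and 6 were called by neither. The 27 include textbook splicing regulators. SRSF1, the founding SR protein, had 104, 22.9 and 13.3 CPM in IVF 4-cell embryos, 19.2, 15.4 and 21.4 CPM in IVF blastocysts and 25.1, 18.4 and 20.01 CPM in IVF hatched blastocysts, and 25.1 and 25.5 CPM in in vivo blastocysts and 27.5 and 65.3 CPM in in vivo hatched blastocysts. Of its highest 2 values, 1 was in 4-cell library 1 and 1 in in vivo hatched library 2. HNRNPA2B1, which binds RNA much as its relative HNRNPA1 does, had 949, 605 and 569.7 CPM in IVF hatched, against 1189 and 720.3 CPM in in vivo hatched blastocysts, and the groups overlapped. HNRNPA1, a classic splicing repressor, had 273, 369 and 155 CPM in IVF hatched blastocysts, against 626 and 283 CPM in in vivo hatched blastocysts, a log2 difference of -0.69 ± 0.40. SNRPB had 318, 316 and 364 CPM in IVF and 338 and 336 CPM in in vivo blastocysts, a log2 fold change of -0.051 ± 0.21, which lies within the spread of the replicates. The others without a call by edgeR with all libraries were HNRNPAB, HNRNPF, HNRNPH3, HNRNPK and HNRNPUL2, PRPF6 and PRPF31, SF3A2, SF3A3, SF3B1, SF3B5 and SF3B6, SNRPA1, SNRPB2, SNRPC, SNRPD2, SNRPE and SNRPF, and SRSF3, SRSF4, SRSF5, SRSF7 and SRSF12.

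Called in opposite directions in different comparisons were 7 members: SF3A1, SF3B3, SRSF9, HNRNPD, HNRNPL, HNRNPM and HNRNPU. HNRNPL is an example, since it was higher in hatched in vivo blastocysts and in IVF blastocysts than in in vivo blastocysts, and lower in IVF blastocysts than in 4-cell embryos.

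Other genes of the splicing machinery, 126 in 8 lists, were counted beside the members. In IVF blastocysts 21 of the 123 tested were higher and 48 lower than in 4-cell embryos, with a median log2 fold change of -0.54, against -0.23 over all genes (25.7% called higher and 30.6% lower). Without 4-cell library 1 it was 38 higher and 49 lower of 124, against 32.4% and 33.6% of genes. The Prp19 complex list had 0 higher and 9 lower of 16 with or without that library, among them CDC5L, a partner of PRPF19 in its core (-1.55 ± 0.26 on the log2 scale), and CDC40, a factor of the second catalytic step (-2.81 ± 0.30). The Lsm proteins, relatives of the Sm proteins, had 5 higher and 2 lower of 10 with or without it, with LSM4 at 3.57 ± 0.32 and LSM11 at -5.20 ± 0.60. Of the SR kinases and SR-related proteins 3 were higher and 8 lower of 15 (4 and 7 without it), with SRPK2 at -3.74 ± 0.37 and SRPK1 at -2.21 ± 0.33, both kinases that phosphorylate SR proteins.

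In IVF relative to in vivo blastocysts 2 of the 122 tested were higher and 21 lower (median -0.33), against 6.09% and 4.74% of all genes, and in IVF relative to in vivo hatched blastocysts 3 were higher and 15 lower (median -0.26), against 6.96% and 4.88%. LUC7L3, a U1-associated protein, was lower at both stages. It had 21.1, 21.3 and 23.5 CPM in IVF, against 81.7 and 66.2 CPM in in vivo blastocysts (log2 fold change -1.79 ± 0.25, adjusted p = 0.00381), and 22.2, 15.0 and 17.8 CPM in IVF hatched, against 44.1 and 63.4 CPM in in vivo hatched blastocysts (log2 fold change -1.47 ± 0.25, adjusted p = 0.00447). SRRM2, a large SR-related protein, was also lower at both (log2 fold changes of -1.45 and -1.39). On hatching in vivo 7 were higher and 7 lower, against 6.96% and 7.39% of all genes. PRMT5 and WDR77, which together methylate Sm proteins before ring assembly, were among those higher. PRMT5 had 306 and 379 CPM in hatched, against 155 and 156 CPM in unhatched in vivo blastocysts (log2 fold change 1.05 ± 0.21, adjusted p = 0.00771). WDR77 had 264 and 237 CPM in hatched, against 91.3 and 92.6 CPM in unhatched in vivo blastocysts (log2 fold change 1.37 ± 0.23, adjusted p = 0.00409). For both, the IVF hatching change minus the in vivo one was called too. It was -1.11 ± 0.27 for PRMT5 (adjusted p = 0.0394) and -1.17 ± 0.30 for WDR77 (adjusted p = 0.0471). In that comparison 1 of the 122 was higher and 3 were lower, against 2.79% and 1.93% of all genes. Whether the PRMT5 and WDR77 calls held with a library left out was not examined. Each of the 7 member calls on hatching in vivo was lost in some such omission.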

How the data were processed

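The table on the Sscrofa11.1 build gave counts and FPKM for 13 libraries. The counts were deposited by the authors as whole numbers per gene, not normalised. The FPKM values were made by the authors and are used here only to compare levels between genes. Tools named in the submitters' processing notes, in no stated role, are StringTie 1.3.1, RSEM, HISAT2, Bowtie2 and fastp 0.18.0. Per the labels' protocols, mRNA was enriched on oligo(dT) beads and sequenced in pairs. How reads shared by similar or overlapping genes were counted, and whether strand was used, was not given in the sources used here; 23 of the 65 rows share bases with another annotated gene. Of 39 columns 14 were not used, namely 13 of TPM and the FPKM of 1 in vivo hatched library, whose numbered FPKM column could not be matched to the unnumbered counts by name. Means of FPKM are therefore over 12 libraries, where 13 had been planned. All 65 rows matched RefSeq genes of that build by gene number, and positions come from RefSeq. No member's sequence is shown.

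Printed CPM are counts divided by the library total and scaled to the same size for all libraries, without TMM. Genes were tested in edgeR 4.0.16 (R 4.3.3) by its two-sided quasi-likelihood test, after TMM normalisation and filterByExpr, and p-values were adjusted by Benjamini-Hochberg over all genes tested and called under 0.05. The 9 IVF libraries were fitted together for comparisons with 4-cell embryos (16312 genes) and the 10 blastocyst and hatched libraries for the others (15528 genes). Behind ± stands an SD over libraries where the value is CPM or FPKM, and a standard error where it is a log2 fold change or difference. TMM factors were 1.33, 1.14 and 0.963 for 4-cell libraries 1, 2 and 3. No replicate pair agreed within sampling noise (lowest chi-square divided by its degrees of freedom, 78.3). The test was tried on simulated counts first. Alternatives were DESeq2 1.42.0 and its size factors, library totals, no filter, all libraries in 1 fit, each library left out and a replicate block.

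The members and gene lists were chosen with earlier results of these data known. Values per library are given for the 2 called members of each family, comparison and direction with the smallest adjusted p, for members called in opposite directions, for 8 fixed genes and for family extremes in FPKM, with some left to counts. Of the other lists up to 4 called genes a comparison could be named. Genes named beyond this rule, such as PRPF6, SF3B5, CDC5L and SRPK1, were chosen after their values were seen. Of the members 1 enters the counts, sums and medians but is not reported here by name or drawn by gene.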

Additional observations from a re-analysis of the deposited data

How the results depend on the processing

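Apart from left-out libraries and the replicate block, counts of called members stayed within 1.5 times of those reported under each setting except these. With library totals alone 7 rose in IVF blastocysts over 4-cell embryos (23% of genes). In that setting 17 were lower in IVF hatched than in vivo hatched blastocysts (6.03% of genes), and 1 had a lower IVF than in vivo hatching change (2.17% of genes). Without the filter on low counts 17 were lower in IVF hatched than in vivo hatched blastocysts (5.79% of genes), and 5 had a lower difference of hatching changes (4.21% of genes). DESeq2 called 10 higher and 3 lower on hatching in vivo, 4 higher in IVF than in vivo blastocysts, 23 lower in IVF hatched than in vivo hatched blastocysts, and 7 lower for the difference. With all 13 libraries in 1 fit the counts were 0 higher and 0 lower on hatching in vivo, 0 and 0 for IVF over in vivo blastocysts, and 0 lower for hatched blastocysts by origin. In these comparisons that fit called at most 0.346% of all genes in either direction. The cause of these shifts was not tested.

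Leaving out 1 library at a time, the number higher than in 4-cell embryos was 9 to 26 in IVF blastocysts and 9 to 25 in IVF hatched blastocysts. On hatching in vivo 0 to 7 were higher and 0 to 3 lower. For IVF over in vivo embryos 0 to 2 were higher and 1 to 11 lower in blastocysts, and 0 to 2 higher and 2 to 11 lower in hatched blastocysts. The difference of hatching changes had 0 to 2 lower. For only some of these fits was the share of all genes called counted.

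Replicate numbers are shared between groups, but same-numbered libraries did not deviate together (correlations of -0.133 to 0.027), so the numbers were not taken as pairs. With the replicate block, for which the unnumbered library was left out, 1 member was higher and 0 lower on hatching in vivo, 1 higher and 4 lower in IVF than in vivo blastocysts, 5 lower in hatched blastocysts by origin, and 1 lower for the difference. The log2 fold change changed sign under the block for HNRNPA1 (-0.052) and PRPF8 (0.16) on hatching in vivo, SNRPB (0.00889) for blastocysts by origin, and HNRNPA1 (0.12) and SNRPD1 (0.049) for hatched blastocysts by origin. None of these 5 was called. With the block the share of all genes called was not counted, so its member counts cannot be set against that share.

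Other sign changes were in uncalled genes. In IVF hatched blastocysts over 4-cell embryos, PRPF8 was at -0.11 with library totals, and SF3B1 at -0.070 with DESeq2 size factors, -0.30 with library totals and -0.0684 with DESeq2. With single libraries left out, IVF blastocysts over 4-cell embryos spanned -0.58 to 0.40 for HNRNPA1, -0.54 to 0.17 for HNRNPA2B1, -0.057 to 0.051 for PRPF8, -0.23 to 0.19 for SF3B1 and -1.31 to 0.32 for SRSF1. Hatched over 4-cell embryos spanned -1.02 to 0.087 for HNRNPA1, -0.53 to 0.21 for HNRNPA2B1, -0.095 to 0.28 for SF3B1 and -1.09 to 0.54 for SRSF1. IVF hatching spanned -0.22 to 0.26 for HNRNPA2B1, -0.059 to 0.26 for SF3B1 and -0.11 to 0.12 for SNRPB. In vivo hatching spanned -0.096 to 1.15 for HNRNPA1, -0.78 to 0.24 for PRPF8 and -0.0081 to 0.31 for SNRPB. IVF over in vivo blastocysts spanned -0.20 to 0.52 for HNRNPA2B1, -0.39 to 0.053 for SF3B1 and -0.15 to 0.061 for SNRPB. IVF over in vivo hatched blastocysts spanned -1.20 to 0.057 for HNRNPA1, -0.73 to 0.11 for HNRNPA2B1 and -0.39 to 0.21 for SNRPD1. For SRSF1 the difference of hatching changes spanned -1.03 to 0.12.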
